A study of Mus musculus with 12 samples.

Results

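The core circadian clock of the liver was followed through 10 genes, which are Arntl (also known as Bmal1), Clock, Npas2, Per1, Per2, Per3, Cry1, Cry2, Nr1d1 and Nr1d2. They are 10 of the 24187 genes in the count table, all 10 had enough counts to be tested, and 22581 genes were tested in all. The genes were chosen by name as the core of the clock, after their differences between these livers had been seen. Their levels, fold changes and counts are therefore given as a description, with no p-value for any of the 10.

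Bulk RNA sequencing, which counts transcripts of tissue without separating its cells, was applied to the livers of 12 mice. Control mice (n = 3) were untreated, vehicle-treated mice (n = 5) received paracetamol (APAP) and then PBS, and hAAM-treated mice (n = 4) received APAP and then hAAMs, which are human alternatively activated macrophages grown from blood monocytes. The label gives a dose of 350 mg/kg APAP for both injured groups, whereas the methods of the study name 350 or 500 mg/kg depending on the model. All mice were C57BL/6J by the study's methods, with C57BL6/JOlaHsd also named there, were 10 to 12 weeks old and were kept in a light phase of 12 h. APAP was injected after a fast of 12 h and food was returned 20 min later, and the methods also describe saline given after the fast, whereas the labels call the sequenced control mice untreated. PBS or hAAMs were injected 16 h after APAP, and livers were taken at 36 h by the methods or at 32 h by the legend of the severe model. The hour of day at which each liver was taken is not given in the sources used here, so differences in collection hour and differences between the treatments cannot be told apart. The host mice kept their own macrophages, and only mouse genes are in the table.

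Between 47391650 and 74056505 reads were counted in each liver, and the lowest count of any of the 10 genes in any liver was 107, for Npas2. The hepatocyte marker Alb was at 35700 CPM or more in every liver, where CPM are counts per 1000000 counts of the scaled library, and all 12 livers had the low Xist and high Ddx3y of male mice. One pair of livers with different labels was nearly the same: hAAM replicate 4 and vehicle replicate 3 differed by 1.20 times counting noise over 13654 genes, against 2.86 times or more for every other pair. Each was kept in its labelled group, and results between hAAM-treated and vehicle-treated mice are given with both livers and without them, which leaves 3 hAAM-treated and 4 vehicle-treated mice. In vehicle replicate 5 the summed B cell markers reached 58.6 CPM and the summed red-cell markers 1410, the highest of all livers, and without it 9 of the 10 clock genes still passed against control. Replicates are separate mice by their labels, but the protocol names 14 libraries while 12 samples are listed.

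The clock is a transcription loop that runs in almost every cell. ARNTL pairs with CLOCK or NPAS2 and binds E-boxes to switch on the PER and CRY genes, whose proteins return to the nucleus and repress their own activators. In a further loop, the REV-ERB receptors encoded by Nr1d1 and Nr1d2 compete with ROR receptors for ROR elements and repress Arntl, Npas2 and other genes, while D-boxes are bound by DBP, TEF and HLF as activators and by NFIL3 as a repressor. In liver the loop is set largely by feeding, and it times metabolism, detoxification and cell division.

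The promoter sequences of the genes show where the letters of these elements lie. RefSeq start sites on GRCm38.p6 gave 13 windows for 9 of the 10 genes, each reaching from 250 bases before the start site to 50 bases after it, and Per2 is named only. Motifs were searched on both strands as the E-box CACGTG, its variant CACGTT, the D-box TTATGTAA, the core of the ROR element TAGGTCA and the cAMP response element TGACGTCA. Of 32851 windows of the same length over all genes, 7.15% held CACGTG, 4.68% CACGTT, 0.938% TTATGTAA, 2.61% TAGGTCA and 1.79% TGACGTCA. Among the 13 windows, 2 held CACGTG, 3 held CACGTT, 1 held TTATGTAA, 1 held TAGGTCA and 0 held TGACGTCA. The 5 windows below belong to genes whose values follow liver by liver and that held a match, which is in capitals. They read 5′ to 3′ on the strand of the gene, on which CACGTT appears as AACGTG.
Arntl, chr7:113207261-113207560, plus strand: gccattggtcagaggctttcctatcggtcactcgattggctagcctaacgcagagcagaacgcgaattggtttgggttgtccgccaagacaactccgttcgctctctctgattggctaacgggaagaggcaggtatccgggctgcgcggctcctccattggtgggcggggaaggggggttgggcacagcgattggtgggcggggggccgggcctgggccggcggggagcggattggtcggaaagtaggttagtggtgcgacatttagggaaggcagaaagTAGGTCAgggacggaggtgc
Per1, chr11:69098699-69098998, plus strand: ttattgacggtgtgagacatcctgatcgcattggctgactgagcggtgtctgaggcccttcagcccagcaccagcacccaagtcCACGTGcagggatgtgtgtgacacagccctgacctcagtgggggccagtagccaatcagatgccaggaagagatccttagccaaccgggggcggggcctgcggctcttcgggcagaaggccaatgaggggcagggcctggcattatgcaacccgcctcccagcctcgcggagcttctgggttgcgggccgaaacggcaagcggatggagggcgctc
Per3, chr4:151044616-151044915, minus strand: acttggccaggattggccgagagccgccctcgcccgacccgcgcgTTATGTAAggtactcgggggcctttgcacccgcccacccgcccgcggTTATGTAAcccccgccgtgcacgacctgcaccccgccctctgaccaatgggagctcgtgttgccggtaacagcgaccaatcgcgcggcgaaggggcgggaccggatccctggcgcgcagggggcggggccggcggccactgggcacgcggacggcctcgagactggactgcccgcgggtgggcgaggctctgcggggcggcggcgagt
Cry1, chr10:85185005-85185304, minus strand: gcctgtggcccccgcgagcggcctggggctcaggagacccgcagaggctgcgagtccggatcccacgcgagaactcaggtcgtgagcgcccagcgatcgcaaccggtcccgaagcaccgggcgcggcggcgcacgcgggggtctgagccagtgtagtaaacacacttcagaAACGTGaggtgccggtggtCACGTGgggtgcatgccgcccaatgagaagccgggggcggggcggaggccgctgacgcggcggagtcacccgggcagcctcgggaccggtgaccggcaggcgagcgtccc
Nr1d1, chr11:98775328-98775627, minus strand: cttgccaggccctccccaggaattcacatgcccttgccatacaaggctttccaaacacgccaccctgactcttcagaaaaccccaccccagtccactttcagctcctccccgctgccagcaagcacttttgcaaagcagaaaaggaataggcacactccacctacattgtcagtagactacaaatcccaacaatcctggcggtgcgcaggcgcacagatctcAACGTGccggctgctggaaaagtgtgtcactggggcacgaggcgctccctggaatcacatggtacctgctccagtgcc
Counted from the start site as 0, the ROR element letters lay at 30 in the Arntl window, the E-box at -166 in the Per1 window, and the D-boxes at -205 and -158 in the Per3 window. The Cry1 window held the E-box variant at -79 and the E-box at -60, and the Nr1d1 window held the variant at -28. Cry2 had the variant at -166. These are matches of letters and not measured binding sites, and no match in a window says only that the letters are not in those 300 bases.

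Levels are CPM after TMM scaling, and log2 fold changes and their standard errors (SE) come from edgeR's quasi-likelihood fit to all 12 livers. In vehicle-treated livers the activator genes Arntl, Npas2 and Clock were lower than in control livers together with Cry1, while Per1, Per2, Per3, Cry2 and Nr1d2 were higher. These 9 of the 10 genes passed an FDR of 0.05, 5 higher and 4 lower, where 29.8% of all genes passed it, 15.0% higher and 14.8% lower. Nr1d1 did not pass it, at a log2 fold change of 0.95 (SE 0.354). All 10 genes, Nr1d1 among them, passed with DESeq2, with only these groups fitted, and without hAAM replicate 1 or hAAM replicate 4. The values of control and vehicle-treated livers did not overlap for 9 of the 10 genes, all but Per2, and for 34.8% of all genes. The median absolute log2 fold change was 1.01 for the 10 genes and 0.32 for all genes tested. Since these comparisons chose the genes, nothing is read from the counts. With any single liver left out, between 7 and 10 of the 10 genes passed. In bulk tissue, fewer cells of a type and less RNA per cell cannot be told apart.

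**Figure D1:**
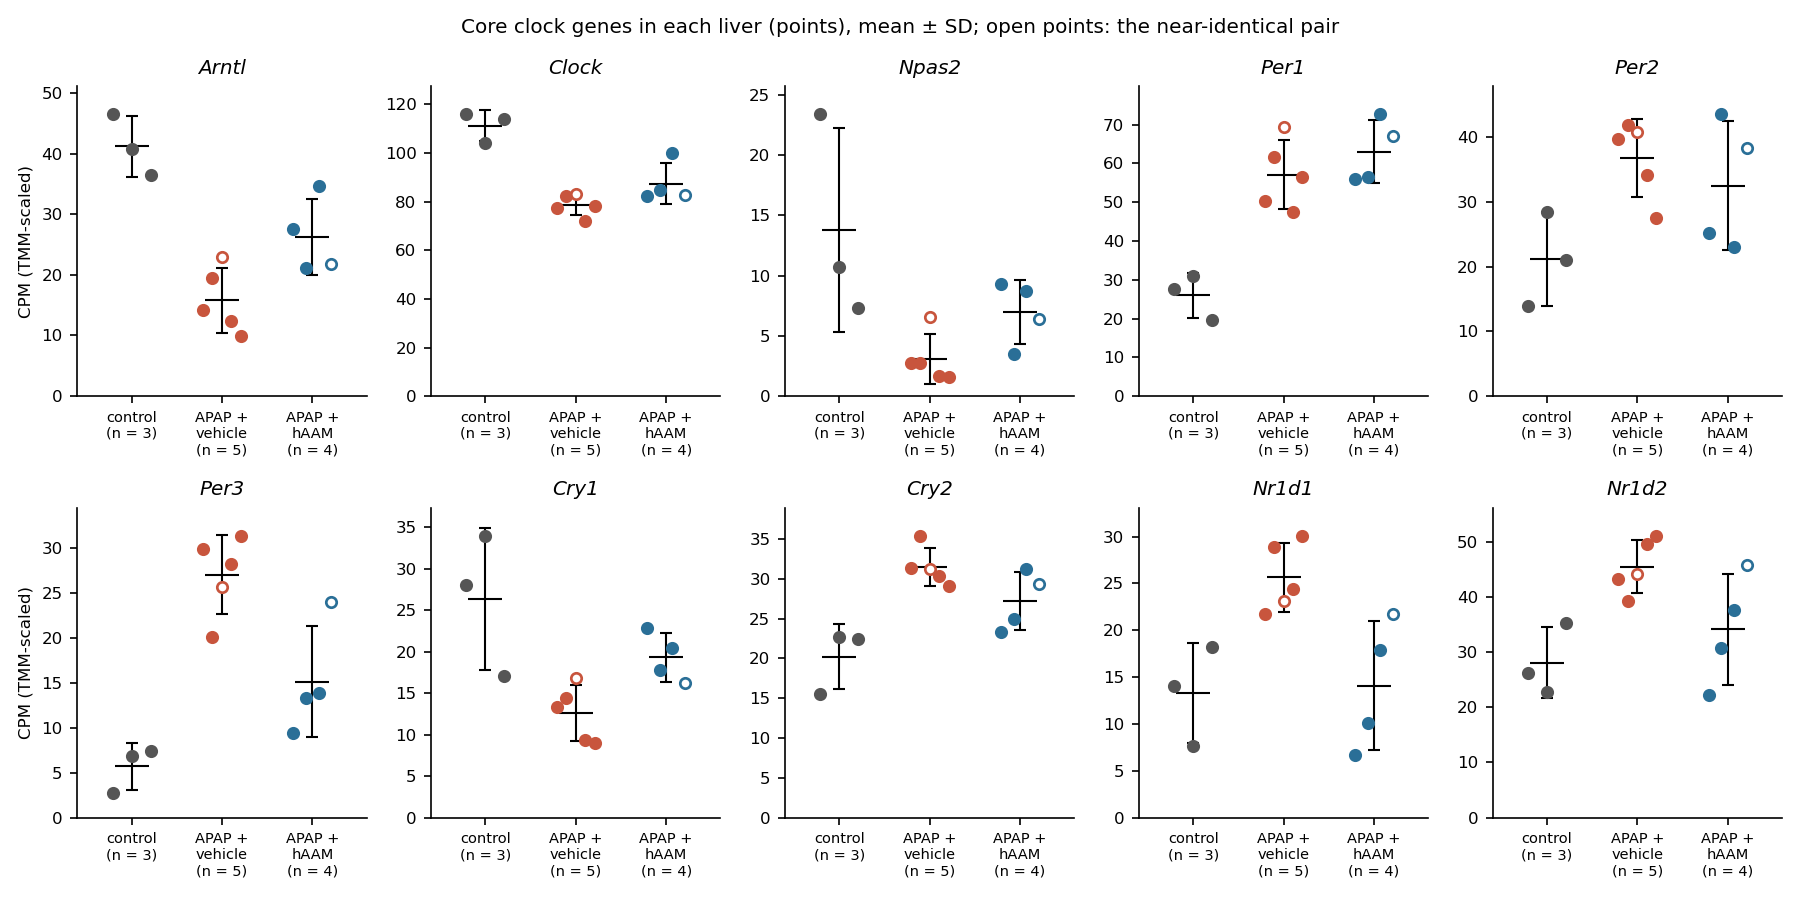
Level of each core clock gene in CPM (vertical axis, starting at 0) in every liver (points) of control, vehicle-treated and hAAM-treated mice, with the mean and SD of each group in black and the near-identical livers as open points. Vehicle-treated livers lie below all control livers for Arntl, Clock, Npas2 and Cry1 and above all of them for Per1, Per3, Cry2, Nr1d1 and Nr1d2.

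Arntl (ENSMUSG00000055116, chr7:113207465-113314126 on GRCm38) encodes the partner that the activator complex cannot do without. Its level was 46.5, 40.7 and 36.4 CPM in control replicates 1 to 3, and 14.2, 19.5, 22.9, 12.4 and 9.88 CPM in vehicle replicates 1 to 5. In hAAM replicates 1 to 4 it was 27.5, 21.1, 34.6 and 21.8 CPM. Every injured liver was below every control liver, and the range of hAAM-treated livers overlapped that of vehicle-treated livers only through vehicle replicate 3. Against control this was 2.62-fold lower with vehicle, a log2 fold change of -1.39 (SE 0.242), and 1.57-fold lower with hAAMs, at -0.65 (SE 0.256). With hAAMs, Arntl did not pass the threshold except in the fit without hAAM replicate 3, in which it was at -0.81. Exons of Arntl share 33 bases, 0.439% of their length, with the antisense gene Gm45355.

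Npas2 (ENSMUSG00000026077, chr1:39193731-39363236) encodes a relative of CLOCK that can take its place beside ARNTL. It had 23.4, 10.7 and 7.31 CPM in control replicates 1 to 3, and 2.74, 2.79, 6.58, 1.71 and 1.58 CPM in vehicle replicates 1 to 5. The hAAM replicates 1 to 4 had 9.27, 3.46, 8.69 and 6.42 CPM. All vehicle-treated livers were below all control livers, with vehicle replicate 3 close to the lowest control, whereas hAAM-treated livers overlapped both other groups. On the log2 scale Npas2 was at -2.17 (SE 0.485) with vehicle, or 4.50-fold lower, and at -0.99 (SE 0.508) with hAAMs. Control replicate 1 carried much of this: without it the values were -1.55 and -0.37.

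Clock (ENSMUSG00000029238, chr5:76209868-76304792) encodes the usual partner of ARNTL and varied least of the activators. Its mean was 111 ± 6.52 CPM (SD, n = 3) in control livers, 78.7 ± 4.42 (n = 5) with vehicle and 87.5 ± 8.46 (n = 4) with hAAMs. The injured livers, at 72.2 to 100 CPM, were below the control livers, at 104 to 116 CPM, without overlap. Clock was at a log2 fold change of -0.50 (SE 0.0826) with vehicle and -0.35 (SE 0.0870) with hAAMs, and without control replicates 1 or 3 or hAAM replicate 1 the latter missed the threshold at -0.31 to -0.33. When counts were scaled by library size alone, which moved the median of all genes to 0.36 and 0.32, these became -0.15 (SE 0.0712) and -0.05 (SE 0.0747), and Clock no longer passed the threshold in either comparison.

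The PER genes encode the repressor that delays the loop, and the members differed in size of change. Per1 (ENSMUSG00000020893, chr11:69095217-69109960), which also answers to glucocorticoids and cAMP, had 27.5, 30.9 and 19.6 CPM in control replicates 1 to 3. It had 50.4, 61.7, 69.5, 47.5 and 56.5 CPM in vehicle replicates 1 to 5 and 56.0, 56.5, 72.7 and 67.0 CPM in hAAM replicates 1 to 4. All 9 injured livers were above all control livers, and the injured groups lay in the same range. The log2 fold change against control was 1.14 (SE 0.166) with vehicle and 1.28 (SE 0.172) with hAAMs. Per1 alone of the 10 was further from control with hAAMs than with vehicle, by 0.14 (SE 0.145).

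Per3 (ENSMUSG00000028957, chr4:151003652-151044665), a PER protein that the loop can do without, had the largest rise. It was at 2.73, 6.89 and 7.47 CPM in control replicates 1 to 3, and at 29.9, 20.1, 25.7, 28.2 and 31.4 CPM in vehicle replicates 1 to 5. In hAAM replicates 1 to 4 it was at 9.42, 13.3, 13.9 and 24.0 CPM. The injured groups were both above control without overlap, and 3 of the 4 hAAM-treated livers were below every vehicle-treated liver, the other being replicate 4 of the near-identical pair. Against control Per3 was 4.74-fold higher with vehicle, a log2 fold change of 2.25 (SE 0.353), and 2.66-fold higher with hAAMs, at 1.41 (SE 0.352). Per2 (ENSMUSG00000055866, chr1:91415982-91459324), the PER gene most needed for rhythm, was at 21.2 ± 7.24 CPM in control livers, 36.8 ± 5.99 with vehicle and 32.5 ± 9.96 with hAAMs. Per2 ranges overlapped in all 3 comparisons, with log2 fold changes of 0.80 (SE 0.254) and 0.62 (SE 0.263). The call with vehicle was lost in 5 of the 12 fits that left out 1 liver, namely without control replicates 1 or 3 or vehicle replicates 1, 2 or 3, at 0.57 to 0.79.

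The CRY genes, whose proteins bind and silence the activator complex, moved in opposite directions. Cry1 (ENSMUSG00000020038, chr10:85131700-85185064), the stronger repressor, had 28.1, 34.0 and 17.1 CPM in control replicates 1 to 3. Vehicle replicates 1 to 5 had 13.4, 14.4, 16.8, 9.37 and 8.98 CPM, and hAAM replicates 1 to 4 had 22.9, 17.8, 20.5 and 16.2 CPM. Vehicle-treated livers were all below control livers, by a small margin between 16.8 and 17.1 CPM, and hAAM-treated livers overlapped both. The log2 fold change was -1.07 (SE 0.235) with vehicle and -0.45 (SE 0.249) with hAAMs.

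Cry2 (ENSMUSG00000068742, chr2:92403646-92434043) was at 20.2 ± 4.04 CPM in control livers, 31.5 ± 2.36 with vehicle and 27.2 ± 3.68 with hAAMs. All injured livers, from 23.3 to 35.4 CPM, were above the highest control liver at 22.7. The log2 fold change was 0.64 (SE 0.134) with vehicle and 0.43 (SE 0.139) with hAAMs, and the latter stayed past the threshold in only 2 of the 12 fits with 1 liver left out, those without control replicate 2 or hAAM replicate 1. Exons of Cry2 share 295 bases, 4.67% of their length, with D930015M05Rik on the other strand, so reads there are uncertain.

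Nr1d1 and Nr1d2 encode the receptors REV-ERB alpha and beta, repressors that bind haem. Nr1d1 (ENSMUSG00000020889, chr11:98767932-98775333) had 14.0, 7.63 and 18.2 CPM in control replicates 1 to 3 and 21.7, 28.9, 23.1, 24.4 and 30.1 CPM in vehicle replicates 1 to 5. In hAAM replicates 1 to 4 it had 6.66, 10.1, 17.9 and 21.7 CPM. All vehicle-treated livers were above all control livers, whereas the hAAM-treated livers spread across both groups, with the highest of them at the level of the lowest vehicle-treated liver. The log2 fold change was 0.95 (SE 0.354) with vehicle and 0.09 (SE 0.360) with hAAMs, and the latter turned to -0.19 without both near-identical livers. Exons of Nr1d1 share 263 bases, 8.55% of their length, with Thra on the other strand, whose own level was 13.8 to 19.8 CPM over all livers. Nr1d2 (ENSMUSG00000021775, chr14:18204054-18239127) was at 28.1 ± 6.42 CPM in control livers, 45.5 ± 4.84 with vehicle and 34.1 ± 10.0 with hAAMs. Nr1d2 was at a log2 fold change of 0.69 (SE 0.207) with vehicle, a call lost without control replicates 1 or 2 or vehicle replicate 4 at 0.56 to 0.66, and 0.28 (SE 0.212) with hAAMs.

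Between hAAM-treated and control livers, 4 of the 10 genes passed the threshold, where 20.7% of all genes did. Per1, Per3 and Cry2 were higher, beside 10.7% of all genes, and Clock was lower, beside 9.96%. The groups did not overlap for 5 of the 10 genes, these 4 and Arntl, and for 28.5% of all genes. The median absolute log2 fold change was 0.54 for the 10 genes and 0.29 for all genes. The count fell to 2 when control replicate 1 or control replicate 3 was left out, and also without both near-identical livers. Vehicle and hAAM values share the control livers and are given side by side only.

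**Figure D2:**
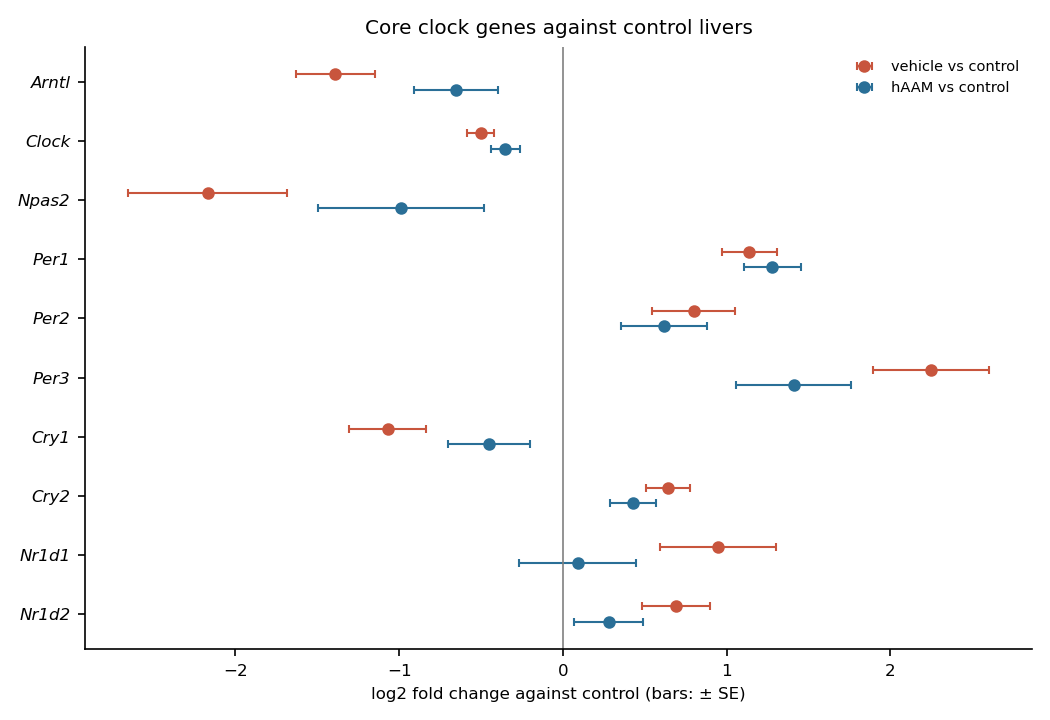
log2 fold change against control livers (horizontal axis) of each core clock gene in vehicle-treated and hAAM-treated livers, with bars of 1 SE. Npas2 at -2.17 and Per3 at 2.25 are the extremes with vehicle, and with hAAMs Nr1d1 lies at 0.09 and Per1 at 1.28.

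Per unit of exon length, the order of the genes differed between the groups. In control livers Clock led at 8.10 ± 0.475 CPM per kb of exon, followed by Cry1 at 7.91 ± 2.57 and Arntl at 5.47 ± 0.677, and Per3 was last at 0.593 ± 0.269. With vehicle, Per1 led at 10.1 ± 1.57 CPM per kb, followed by Nr1d2 at 8.41 ± 0.894 and Nr1d1 at 8.33 ± 1.20, while Arntl was ninth at 2.10 ± 0.705 and Npas2 last at 0.643 ± 0.425. With hAAMs, Per1 led at 11.2 ± 1.46, followed by Clock at 6.37 ± 0.617, and Npas2 was last at 1.45 ± 0.550. Most neighbours in these orders overlapped in their ranges over livers. The exceptions were Npas2 and Per3 in control livers, and Per1 and Clock as well as Arntl and Per3 in hAAM-treated livers.

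Comparing the treatments among injured mice, 0 of the 10 genes and 0 of the 22581 genes passed an FDR of 0.05 in edgeR's test, so 0% of all genes were called. The median absolute log2 fold change was 0.52 for the 10 genes and 0.12 for all genes, and since the genes were chosen with these differences known, nothing is read from this. At an unadjusted p under 0.05 there were 1133 of all genes, and DESeq2 called 0 of the 10 and 1 of all genes. Npas2 was 1.18 higher on the log2 scale with hAAMs (SE 0.458), Arntl 0.74 (SE 0.227) and Cry1 0.62 (SE 0.220). On the other side, the log2 fold change was -0.86 (SE 0.319) for Nr1d1, -0.83 (SE 0.297) for Per3 and -0.42 (SE 0.186) for Nr1d2. Clock, Per1, Per2 and Cry2 differed by 0.21 or less in size. With all livers, the groups overlapped for each of the 10 genes, and 1.40% of all genes did not overlap.

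Without both near-identical livers, 6 of the 10 genes did not overlap between hAAM-treated (n = 3) and vehicle-treated mice (n = 4), where 8.26% of all genes did not. These were Arntl, Npas2 and Cry1, which were higher with hAAMs, and Per3, Nr1d1 and Nr1d2, which were lower. The log2 fold changes became 1.69 (SE 0.440) for Npas2, 0.98 (SE 0.224) for Arntl, 0.82 (SE 0.237) for Cry1, -0.60 (SE 0.194) for Nr1d2, -1.17 (SE 0.303) for Per3 and -1.19 (SE 0.348) for Nr1d1. Clock was at 0.19 (SE 0.0935), Per1 at 0.19 (SE 0.162), Per2 at -0.23 (SE 0.271) and Cry2 at -0.25 (SE 0.148), with overlap. The median absolute log2 fold change of the 10 genes was then 0.71, and that of all genes 0.14. edgeR still called 0 of the 10 genes and 0 of all genes, with a smallest FDR of 0.156 over all genes and 1530 genes at an unadjusted p under 0.05. DESeq2 on the same 10 livers, a fit chosen after the data were seen, called 88 genes in all and 3 of the 10, which were Npas2, Arntl and Per3.

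**Figure D3:**
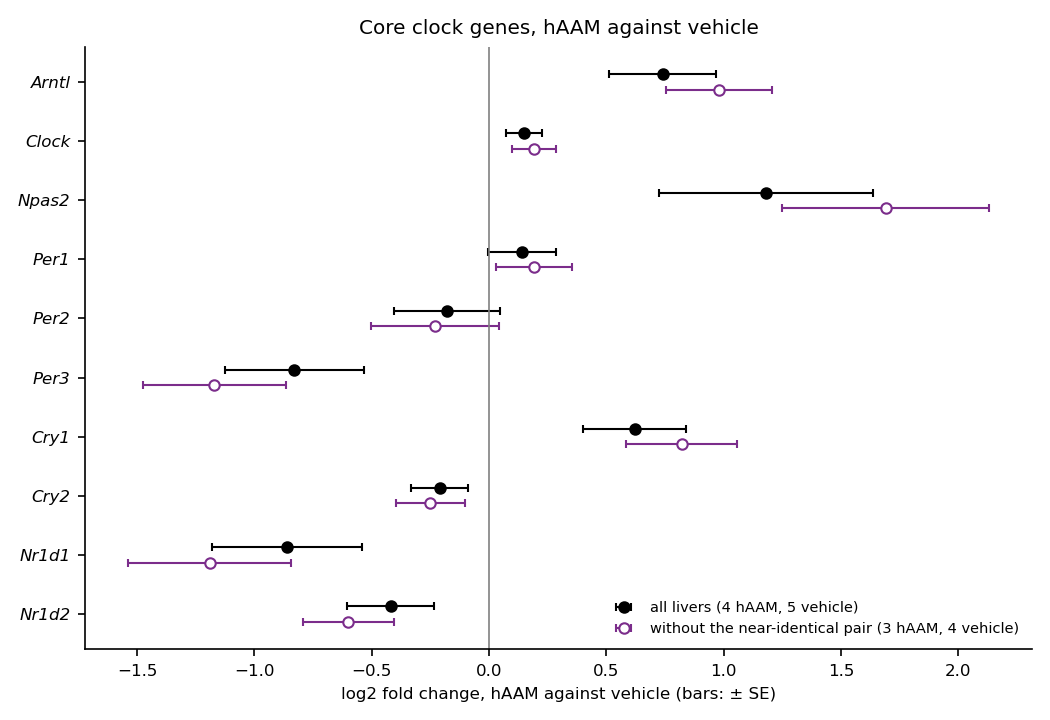
log2 fold change of hAAM-treated against vehicle-treated livers (horizontal axis) of each core clock gene with all 9 injured livers (filled) and without the near-identical pair (open), with bars of 1 SE. Leaving out the pair moved Npas2 from 1.18 to 1.69 and Nr1d1 from -0.86 to -1.19.

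A single value per liver, the log2 ratio of Arntl to Nr1d1, sets the activator against the receptor that represses it. It was 1.73, 2.41 and 1.00 in control replicates 1 to 3, and -0.61, -0.57, -0.02, -0.97 and -1.60 in vehicle replicates 1 to 5. In hAAM replicates 1 to 4 it was 2.04, 1.05, 0.95 and 0.00. Vehicle-treated livers were below all control and all hAAM-treated livers, and the near-identical pair lay side by side where the injured groups met. The ratio compares livers and not the genes, since the longer exons of Arntl add 1.29 to each value, so 0 marks no equal level. The group means were 1.71 ± 0.71 (SD, n = 3), -0.75 ± 0.59 (n = 5) and 1.01 ± 0.83 (n = 4). Without the near-identical pair they were -0.94 ± 0.48 with vehicle and 1.35 ± 0.60 with hAAMs. The ratio joins genes chosen for their differences and carries no test.

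**Figure D4:**
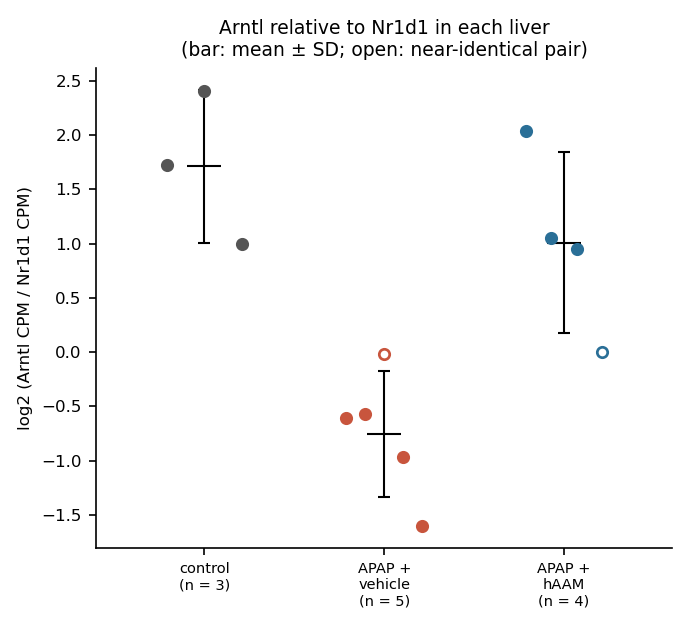
log2 ratio of Arntl to Nr1d1 (vertical axis) in each liver of the 3 groups, with the mean and SD of each group and the near-identical livers as open points. The open points lie at -0.02 and 0.00, between the other vehicle-treated livers below and the other hAAM-treated livers above.

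The rest of the pathway was read from a list of 41 further genes, of which 40 were tested and Rorb was not analysed here. This list too was drawn up with earlier results of these data known. The genes named from it were those with the largest changes among the genes called. Their FDR values are therefore a description and not independent support. In vehicle-treated against control livers, 20 of the 40 passed edgeR's quasi-likelihood test with Benjamini-Hochberg adjustment at an FDR of 0.05, 11 higher and 9 lower, where 29.8% of all genes passed. With hAAMs 15 passed, 9 higher and 6 lower, where 20.7% of all genes did, and without control replicate 3 this count was 9. The median absolute log2 fold change of the 40 was 0.47 with vehicle and 0.33 with hAAMs, beside 0.32 and 0.29 for all genes. Counts in the smaller lists that follow stand beside the same shares, and nothing particular to a list is read from them. Between the treatments 0 of the 40 passed, with 9 at an unadjusted p under 0.05 and 0 by DESeq2.

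Other factors of the loop, 6 genes in all, had 4 calls with vehicle and 2 with hAAMs. Ciart, a repressor of the activator complex, had 0.667 to 0.909 CPM in control livers, 5.31 to 13.4 with vehicle and 2.50 to 7.93 with hAAMs. Ciart rose by 3.43 on the log2 scale with vehicle (SE 0.425, edgeR FDR 0.000297), and hAAM-treated livers were 2.51 above control (SE 0.422, FDR 0.00289). Bhlhe41, a repressor that binds E-boxes, rose by 2.10 on the log2 scale with vehicle (edgeR FDR 0.000260) and by 1.63 with hAAMs (FDR 0.00219). Arntl2, a relative of Arntl, rose by 0.69 with vehicle (edgeR FDR 0.0295) and was at 0.31 with hAAMs (FDR 0.340). The call of Arntl2 was lost without control replicates 1 or 3 or vehicle replicates 4 or 5, at 0.54 to 0.71.

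Of the D-box factors, 3 of 4 passed with vehicle and 2 with hAAMs. The activators Dbp and Tef were at log2 fold changes of 2.85 (edgeR FDR 0.00567) and 1.60 (FDR 0.000860) with vehicle, and 1.55 (FDR 0.0919) and 1.12 (FDR 0.00867) with hAAMs. Without both near-identical livers the hAAM value of Dbp was 0.78, since hAAM replicate 4 had 8.36 CPM and the other hAAM-treated livers 1.29 to 2.69. The repressor Nfil3 fell by 2.14 (edgeR FDR 0.000127) and by 1.67 (FDR 0.00144). Among 12 kinase, phosphatase and ubiquitin genes that set the stability of PER and CRY, 5 passed with vehicle and 4 with hAAMs. The ubiquitin protease Usp2 rose by 2.01 (edgeR FDR 0.00244) and 1.67 (FDR 0.0104), the casein kinase Csnk1e by 0.62 (FDR 0.00479) and 0.57 (FDR 0.0131), and the AMP kinase subunit Prkaa2 fell by 0.55 (FDR 0.00526) and 0.43 (FDR 0.0283). With hAAMs, the call of Csnk1e was lost without control replicate 3, and that of Prkaa2 without control replicates 1 or 3 or hAAM replicates 1 or 2. Of 9 partners and co-regulators, 4 passed with vehicle and 3 with hAAMs, all lower.

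Of 9 clock-controlled liver genes, 4 passed in each comparison. Elovl3, which lengthens fatty acids, had 445, 134 and 186 CPM in control replicates 1 to 3, and 9.05, 11.6, 17.8, 3.34 and 6.85 CPM in vehicle replicates 1 to 5. It had 68.2, 30.4, 45.1 and 19.5 CPM in hAAM replicates 1 to 4. The 3 groups did not overlap. Against control, Elovl3 fell by 4.72 (SE 0.554) in vehicle-treated livers at an edgeR FDR of 0.000232, and hAAM-treated livers were at -2.64 (SE 0.559) at an FDR of 0.00803, both on the log2 scale. Without control replicate 1, the highest of the control livers, these values of Elovl3 were -4.04 (SE 0.513, edgeR FDR 0.000768) and -1.97 (SE 0.535, FDR 0.0356). Between the treatments the log2 fold change of Elovl3 was 2.07 (SE 0.493), which did not pass at an FDR of 0.966, and its treatment groups did not overlap, as for 1 of the 40 genes and 1.40% of all genes, or 7 of the 40 and 8.26% of all genes without the near-identical livers. The mitotic inhibitor kinase Wee1 rose by 1.98 (edgeR FDR 0.000156) and 1.64 (FDR 0.000989), and Nampt, which makes the precursor of NAD, by 0.97 (FDR 0.00245) and 0.75 (FDR 0.0156). Por, the electron donor of cytochromes P450, rose by 0.78 with vehicle (edgeR FDR 0.0173) and was at 0.36 with hAAMs (FDR 0.269). Noct, a circadian phosphatase of NADPH, was at 0.44 with vehicle (edgeR FDR 0.186) and rose by 1.05 with hAAMs (FDR 0.0142), and its difference between the treatments was 0.61 (FDR 0.966). Without both near-identical livers that difference was 0.79 (SE 0.237) and was not called by edgeR. The calls of Nampt and Noct with hAAMs were lost without control replicate 3, at 0.63 and 0.86, and that of Por with vehicle without control replicate 1, at 0.66.

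**Figure D5:**
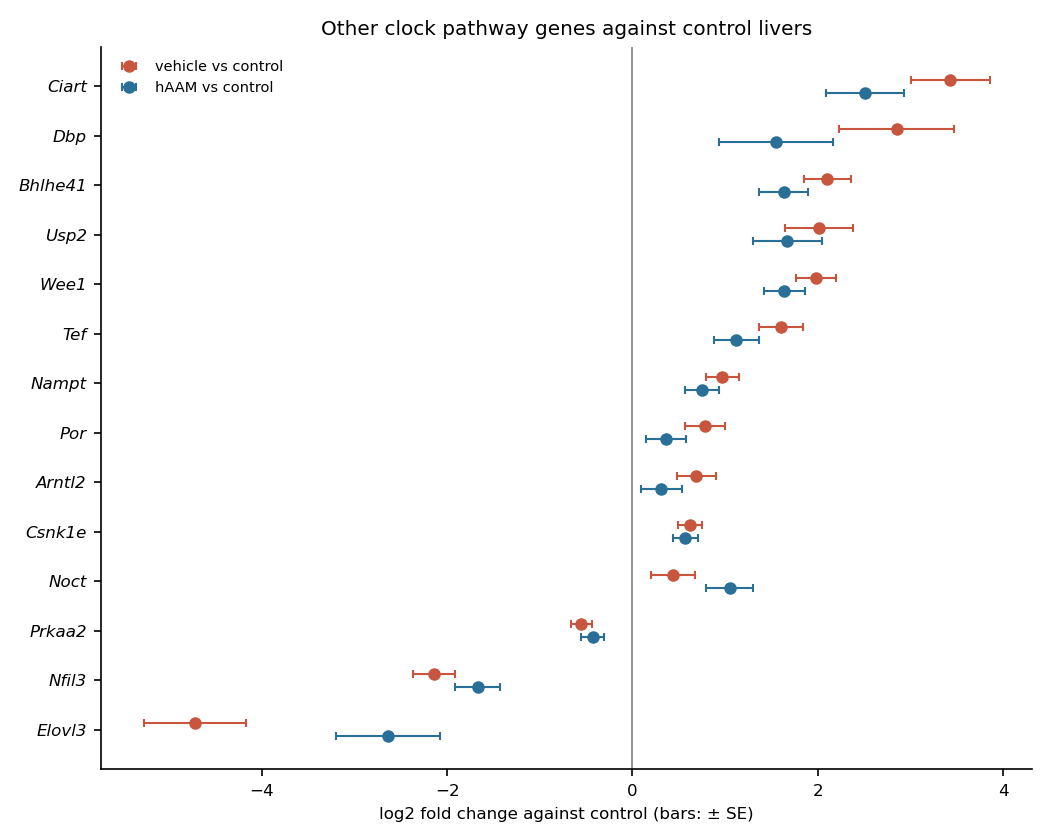
log2 fold change against control livers (horizontal axis) of 14 further clock pathway genes among those with the largest changes of the genes called, in vehicle-treated and hAAM-treated livers, with bars of 1 SE. Ciart at 3.43 and Elovl3 at -4.72 are the extremes with vehicle.

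Without both near-identical livers, DESeq2 also called 4 of the 40 genes between the treatments, where it called 88 of all genes. This fit was chosen after the data were seen, and 3 of the 4 genes are described. Elovl3 was higher with hAAMs at a log2 fold change of 2.64 (DESeq2 FDR 5.64e-05), while Dbp was at -2.13 (FDR 0.00209) and Ciart at -1.36 (FDR 0.0119). edgeR called 0 of the 40 on the same livers.

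Markers of the cell types in liver are given as sums and as genes called. The calls stand beside 29.8% of all genes called with vehicle and 20.7% with hAAMs, and nothing is read from their counts. Summed hepatocyte markers were at 44400 to 73700 CPM in control livers, 54500 to 82200 with vehicle and 57700 to 83600 with hAAMs, with 1 of 5 genes called with vehicle and 0 with hAAMs. Summed macrophage markers were at 204 to 241 CPM, 245 to 408 and 247 to 437, with 2 of 5 called in each comparison, and summed stellate and fibroblast markers at 148 to 189, 228 to 451 and 224 to 533, with 2 of 4 called in each. Monocyte and neutrophil markers were at 4.27 to 16.2, 13.4 to 41.1 and 12.9 to 36.5 CPM in sum, with 1 of 4 called in each. Summed red-cell markers were at 118 to 193 CPM in control livers, 160 to 1410 with vehicle and 165 to 519 with hAAMs, with 3 of 3 called with vehicle, of which 2 were higher, and 1 of 3 with hAAMs, which was lower. Endothelial markers were at 183 to 211, 211 to 283 and 191 to 261 CPM in sum, with 2 of 4 and 1 of 4 called. In the biliary, B cell, T and NK cell and cell cycle lists, no gene was called in any comparison. No marker gene was called between the treatments. Their part in the clock gene values was not tested.

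Among all genes past a mean log2 CPM of 2, likeness to Arntl and to Nr1d1 was measured as Pearson's r of log2 CPM over the 12 livers, which fall into 3 groups and share their scaling. Nearest to Arntl were Cyp4f14, Psen2, Ddc, Mreg and Rfxank, each at 0.97, among 11160 genes. Of the core genes, Npas2 was at 0.94, Cry1 at 0.92 and Clock at 0.89 with Arntl, and Per3 was at -0.87. After group means were subtracted, which leaves the differences among livers of a group, Kdm4c and Mreg were at 0.94, Ddc and Ercc5 at 0.93 and Coq8a at 0.92. Npas2 was then at 0.83, Cry1 at 0.76, Clock at 0.63 and Per3 at -0.46 with Arntl. Per1 went from -0.49 over all livers to 0.58 within groups, and Cry2 from -0.66 to 0.17. Per2 went from -0.60 to -0.08 and Nr1d2 from -0.74 to -0.33. Nearest to Nr1d1 were Stard5 at 0.93, Hlf and Bri3 at 0.90, and Adra1a and Zfp512b at 0.88, with Nr1d2 at 0.92 and Arntl at -0.59. Within groups, Arih2 was at 0.90, Sos2, Stard5 and Thap6 at 0.89 and Ube2e3 at 0.88, with Nr1d2 at 0.89 and Arntl at -0.08.  These values describe the 12 livers and carry no p.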

How the data were processed

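Livers of 12 mice were grouped by their labels. Per the labels, total RNA was depleted of ribosomal RNA and made into directional libraries. The submitters' processing notes name cutadapt 4.6, STAR 2.7.1a, MultiQC 1.25, DESeq2 1.38.3 and the genome build GRCm38. The authors counted reads per Ensembl gene with summarizeOverlaps, and the deposited values are raw counts that were not normalized. Whether counting used strand is not stated. Symbols and loci came from GENCODE annotation of GRCm38, which held 24092 of the 24187 genes.

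The 10 clock genes, the further pathway genes and the markers were chosen with earlier results of these data known. Genes with few counts were dropped by filterByExpr, which was given the groups, counts were scaled with TMM, and 1 quasi-likelihood model without covariates was fitted to all 12 livers with edgeR 4.0.16 in R 4.3.3. Tests were two-sided, with a Benjamini-Hochberg FDR threshold of 0.05 over 22581 genes. The common biological coefficient of variation was 0.214, and log2 CPM carries a prior count of 2. Scripts were tested on simulated data. Depth was 47391650 to 74056505 counts per liver. p-values weigh a difference between groups against the spread among livers of a group, with the near-identical livers counted as separate mice.

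Genes named were the 10 clock genes, the 15 further pathway genes with the largest log2 fold change among those past the threshold against control, and the 5 genes with the highest Pearson's r with Arntl and with Nr1d1, over all livers and after subtracting group means. Of the 15, 1 gene is not reported here. Alternatives changed the tool (DESeq2 1.42.0), scaling, filter, threshold, prior count and livers, and added the replicate number as a block.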

Additional observations from a re-analysis of the deposited data

Results flagged for a closer look

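Clock in hAAM replicate 3 stood apart from the other livers of its group. Its log2 CPM was 6.65, against 6.36 to 6.41 in the other 3 hAAM-treated livers, and the gap to the nearest of them was 0.855 of the range of the group. The liver as a whole also differed from others of its group: its counts differed from those of the control livers by 4.99 to 5.22 times counting noise, and from those of hAAM replicates 1 and 2 by 6.52 and 7.55 times. It was nearest to vehicle replicate 3, at 3.74, and hAAM replicate 4, at 3.78, and its TMM factor was 0.933, against 1.02 to 1.14 in the other hAAM-treated livers. It had the highest Arntl of its group, at 34.6 CPM, and without it Arntl was at a log2 fold change of -0.81 against control and 0.57 against vehicle-treated livers, with 4 of the 10 clock genes called against control. Without it the log2 fold change of Clock was -0.42 against control and 0.08 against vehicle-treated livers. Of 22 groups of values examined, 1 held such a liver, and chance gives about 1 in 20.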

How the results depend on the processing

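For vehicle against control, the alternatives gave 7 to 10 of the 10 clock genes called and 15 to 23 of the 40 further genes, no clock gene changed direction, and with library size alone Clock lost its call in both comparisons with control. For hAAM against control, the 4 clock genes called became 1 when only these 2 groups were fitted, 1 at an FDR threshold of 0.01 and 2 without both near-identical livers, and 2 to 4 with 1 liver left out. With library size alone, 5 clock genes were called. The 15 further genes called became 8 at the stricter threshold, 9 to 16 with 1 liver left out, 19 with library size alone and 20 with DESeq2. With the replicate number as a block (replicate block), 2 clock genes and 12 further genes were called for hAAM against control, and 9 and 16 for vehicle against control. Between livers of different groups that share a number, correlations of deviations from group means ran from -0.458 to 0.385. Livers with different numbers were not compared in this way, so the range cannot decide whether the numbers pair the livers. The block was not used elsewhere. The log2 fold change of Nr1d1 for hAAM against control, 0.09, turned to -0.10 with the replicate block, to -0.19 without both near-identical livers, and to -0.20 with DESeq2 without them, and ran from -0.19 to 0.39 with 1 liver left out (negative without control replicate 2, -0.19, hAAM replicate 3, -0.05, or hAAM replicate 4, -0.19). For hAAM against vehicle, DESeq2 without both near-identical livers, chosen after seeing the data, called 3 clock genes and 4 further genes, and the other alternatives called 0. The cause was not tested. Library size alone as the scaling moved the median of all genes, as a log2 fold change, to 0.36 with vehicle and 0.32 with hAAMs against control. The 3 to 5 mice in a group limit the precision of these values.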
